A study of Mus musculus with 10 samples.

Results

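RNA-seq of mouse neural retina was read here for 10 transcription factor genes that respond to cytokines, growth factors and injury in many tissues: the C/EBP genes *Cebpa*, *Cebpb*, *Cebpd* and *Cebpg*, the ETS genes *Ets1*, *Ets2*, *Etv4* and *Etv5*, and *Runx1* and *Myc*. They were chosen by name among the 54532 genes of the deposited table, all 10 were found there once, and all 10 were among the 24508 genes tested. *Runx1* reached the minimum for testing, 0.1 FPKM in 5 retinas, only through its 5 LD retinas and therefore had to differ, so counts are also given for the other 9. The series compares retinas after normal light (NL) with retinas after light damage (LD), to find genes that the retina turns on under light stress. All mice were 2-month-old albino BALB/c mice that spent 12 h in the dark first, followed by 1 day at 200 lux for NL or at 15000 lux for LD, and each group had 5 retinas (replicates 1, 4, 5, 7 and 8 of NL and 1, 4, 6, 7 and 8 of LD). The labels name no transgene or deletion in either group, and do not say whether each retina came from a separate animal. The paper that reported the data calls the 5 of each group biological replicates, without naming the animals. The p-values therefore measure the spread between these samples, which may in part be technical.

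C/EBP proteins are leucine zipper factors that bind DNA as dimers. C/EBPα, C/EBPβ and C/EBPδ are known for myeloid and fat cell differentiation and for the acute phase response to interleukin-6 type cytokines, while C/EBPγ lacks a strong activation domain and pairs with the others. ETS factors share a winged helix DNA-binding domain, and several of them are targets or effectors of the receptor tyrosine kinase, Ras and ERK pathway. RUNX1 binds DNA together with CBFβ and is best known from blood cell formation, and MYC pairs with MAX to drive growth and ribosome production.

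Levels were in FPKM, fragments per kilobase of transcript scaled to sequencing depth. The deposited values also carry a factor per retina, 0.951 to 0.968 in NL and 1.04 to 1.07 in LD. Levels can be read between genes, while between retinas they are shares of the sequenced RNA that depend on this scaling. Each NL retina had 21343389 to 26832535 reads and each LD retina 18965090 to 23378090. Rod genes, which define the bulk of the tissue, were high in every retina, and their summed level was lower in LD (1079 to 2298 FPKM over 8 genes) than in NL (7759 to 9483). The summed level of 8 ganglion cell genes was 224 to 265 FPKM in NL and 218 to 248 in LD. In such bulk tissue fewer cells of a type and less RNA per cell cannot be told apart, and a lower share of rod RNA cannot be told apart from a higher share of the rest. Of all pairs of retinas within a group, 3 stood far closer to each other than the other 17 (LD-4 with LD-6, NL-5 with NL-7 and LD-1 with LD-7), with a chi-square per gene of 2.65 to 3.65 against 12.2 to 43.4, but each pair still differed beyond counting noise. On the second principal component of all genes, which held 11.7% of the variance, NL-1, NL-8, LD-1 and LD-7 lay on one side and the other 6 retinas on the other, a division that the labels do not name.

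After 1 day of LD, 7 of the 10 factors were called higher (*Cebpd*, *Myc*, *Cebpa*, *Cebpb*, *Ets1*, *Runx1* and *Etv5*) and none was called lower. Calls were made by limma at adjusted p under 0.01 for changes beyond 2-fold, and 4.13% of all genes tested were called higher. Without the minimum fold, 9 of the 10 were higher at an adjusted p under 0.01, against 9.3% of all genes tested, with *Ets2* and *Cebpg* added. For the same 9, every LD retina lay above every NL retina, against 11.8% of all genes tested. Without *Runx1* the counts were 6, 8 and 8 of 9. The median log2 difference was 1.59 over the 10 factors (1.64 over the 9), compared with -0.01 over all genes tested. *Etv4* was the one factor whose groups overlapped. Among the 1089 genes tested that are listed as transcription factors in the deposited table or are among the 10, *Cebpd* had the 3rd and *Myc* the 4th largest log2 difference, *Cebpa* the 17th and *Cebpb* the 20th. All log2 differences are LD minus NL on the scale of log2(FPKM + 0.1), which understates the change of genes near 0.1 FPKM.

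**Figure D1:**
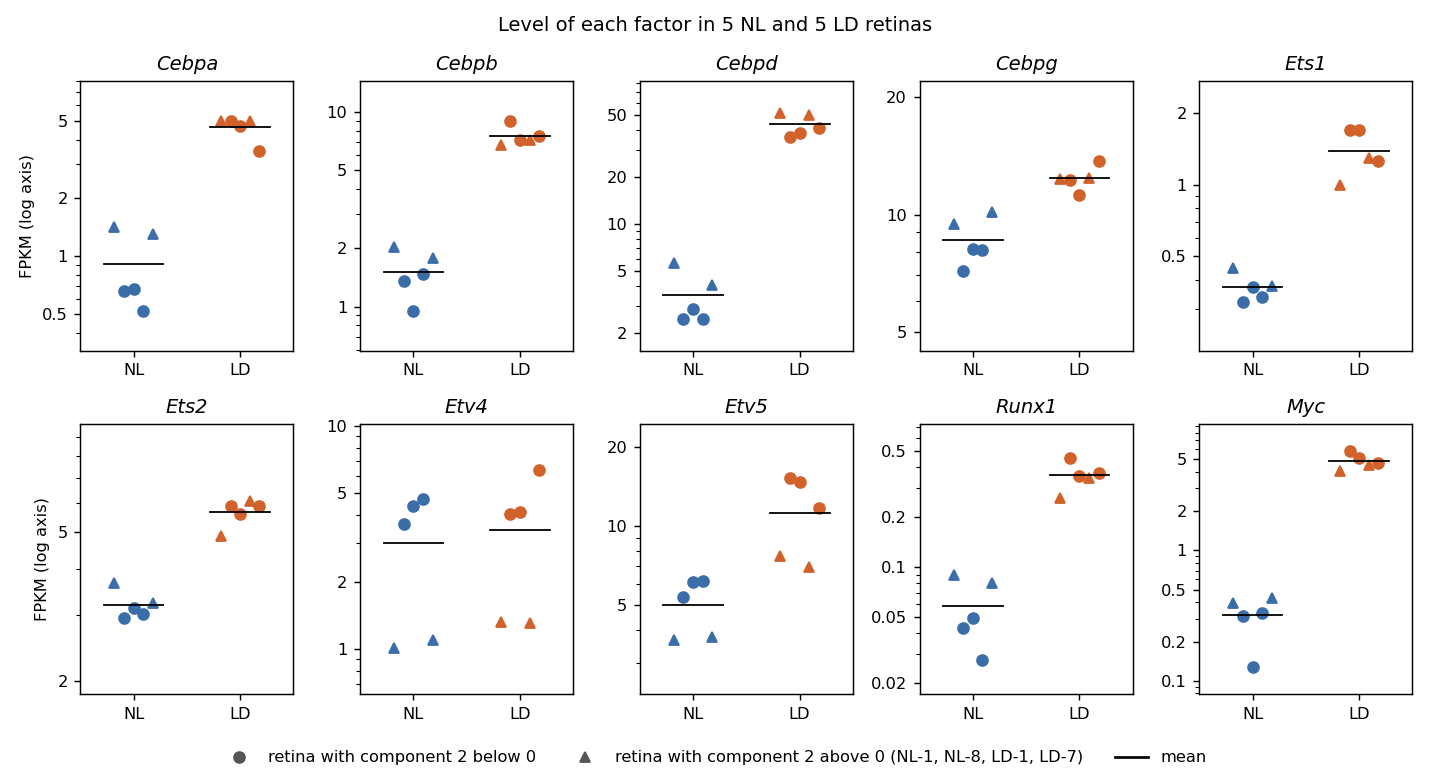
FPKM of the 10 factors on log axes in 5 NL (blue) and 5 LD (orange) retinas, with 1 point per retina and a black line at the group mean. Triangles are NL-1, NL-8, LD-1 and LD-7, the retinas on the positive side of component 2. The 2 groups overlap only for *Etv4*, where the triangles lie near 1 FPKM in both groups.

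The C/EBP genes rose by very different amounts. Positions are those of the deposited table, which match build GRCm38, and span whole genes. *Cebpd* (chr16:15887286-15891031, plus strand), the C/EBP gene best known for rapid induction by STAT3, had, with *Myc*, the largest response of the 10 factors. Which of the 2 came first depended on the scale, since *Cebpd* led with the pseudocounts of 0.1 and 1 and *Myc* led with a pseudocount of 0.01, in limma-voom on reads and by the ratio of means. In NL it was at 5.64, 2.46, 2.84, 2.46 and 4.05 FPKM (replicates 1, 4, 5, 7 and 8, the order used for every NL value). In LD it was at 51.6, 36.1, 38.6, 50.01 and 41.2 FPKM (replicates 1, 4, 6, 7 and 8). The lowest LD retina was thus several times above the highest NL retina, and within each group the highest levels were those of replicate 1 and of NL-8 or LD-7. The mean went from 3.49 ± 1.37 FPKM (SD, n = 5) to 43.5 ± 6.93 (SD, n = 5), 12.5-fold. The log2 difference was 3.66 (SE 0.22, limma adjusted p = 1.28e-06). *Cebpd* overlaps *Spidr* on the opposite strand, and the library kit did not keep strand, so reads of the overlap cannot be told apart. *Spidr* was also higher (1.09 to 4.12 FPKM, log2 difference 1.81, limma adjusted p = 8.45e-06), and it had at most 819 reads in a retina against 2743 to 4714 for *Cebpd* in LD.

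*Cebpb* (chr2:167688915-167690418, plus strand), an intronless gene for a factor of macrophage activation and the acute phase response, was at 2.02, 1.35, 0.950, 1.47 and 1.78 FPKM in NL. After LD it reached 6.74, 8.98, 7.16, 7.12 and 7.50 FPKM. The LD retinas were tightly grouped and none came near the NL range. The mean rose 4.96-fold, from 1.51 ± 0.411 to 7.50 ± 0.873 FPKM (SD, n = 5 each). The log2 difference was 2.27 (SE 0.17, limma adjusted p = 6.33e-06). *Cebpb* overlaps *Tmem189* on the opposite strand, so reads of that overlap cannot be told apart either. *Tmem189* had up to 328 reads in a retina, against 241 to 274 for *Cebpb* in LD and 29 to 69 in NL, with a log2 difference of 0.21 (3.58 to 4.16 FPKM, limma adjusted p = 0.0842).

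*Cebpa* (chr7:35119293-35121928, plus strand), a gene of myeloid and adipocyte differentiation that also slows the cell cycle, was at 1.42, 0.661, 0.673, 0.518 and 1.29 FPKM in NL. The LD retinas had 4.96, 4.96, 4.71, 5.01 and 3.49 FPKM. NL-1 and NL-8 were about level with each other and above the other 3 NL retinas, and LD-8 stood below the other 4 LD retinas. The mean rose 5.07-fold, from 0.913 ± 0.412 to 4.63 ± 0.645 FPKM (SD, n = 5 each), with a log2 difference of 2.30 (SE 0.25, limma adjusted p = 7.76e-05).

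*Cebpg* (chr7:35046422-35056573, minus strand), which lies near *Cebpa*, was at 9.48, 7.16, 8.16, 8.10 and 10.2 FPKM in NL. In LD it was at 12.3, 12.3, 11.2, 12.4 and 13.7 FPKM. The groups did not overlap, but the distance between them was small. The mean rose 1.44-fold, from 8.62 ± 1.20 to 12.4 ± 0.890 FPKM (SD, n = 5 each). With a log2 difference of 0.53 (SE 0.09, limma adjusted p = 0.00172) *Cebpg* passed the adjusted p but not the 2-fold minimum.

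Differences of response between relatives were tested within retinas, as the difference of log2(FPKM + 0.1) between both genes of a pair, by a two-sided exact permutation test over the 10 retinas. There were 12 pairs, 6 of C/EBP and 6 of ETS genes, and the smallest p that 5 against 5 retinas allow is 0.00794. The test takes the retinas as independent, which the 3 close pairs of retinas leave unsure. *Cebpd* responded more than *Cebpg* by 3.13 (SE 0.19), than *Cebpb* by 1.39 (SE 0.23) and than *Cebpa* by 1.36 (SE 0.15) on the log2 scale. *Cebpa* exceeded *Cebpg* by 1.78 (SE 0.23), and *Cebpb* exceeded *Cebpg* by 1.74 (SE 0.16). Each of these 5 differences had exact permutation p = 0.00794, adjusted over the 12 pairs to 0.0159. *Cebpa* and *Cebpb* differed by 0.04 (SE 0.22, exact permutation p = 0.905), with an exact 96.8% rank interval of -0.60 to 0.75, so differences of response within that interval cannot be told from 0.

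Because *Cebpd* rose so much, the make-up of the summed C/EBP level changed. The sum of the 4 genes was 11.6 to 18.6 FPKM in NL (median 12.6) and 61.7 to 75.6 in LD (median 66.0). *Cebpg* held 51.1 to 64.6% of it in NL and 16.3 to 20.8% in LD. *Cebpd* held 19.6 to 30.4% in NL and 57.9 to 68.2% in LD. The groups did not overlap for either share, and the most abundant C/EBP transcript was *Cebpg* in every NL retina and *Cebpd* in every LD retina. The shares of *Cebpa* (median 5.68% in NL and 6.72% in LD) and *Cebpb* (10.9% and 11.4%) overlapped between the groups.

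**Figure D2:**
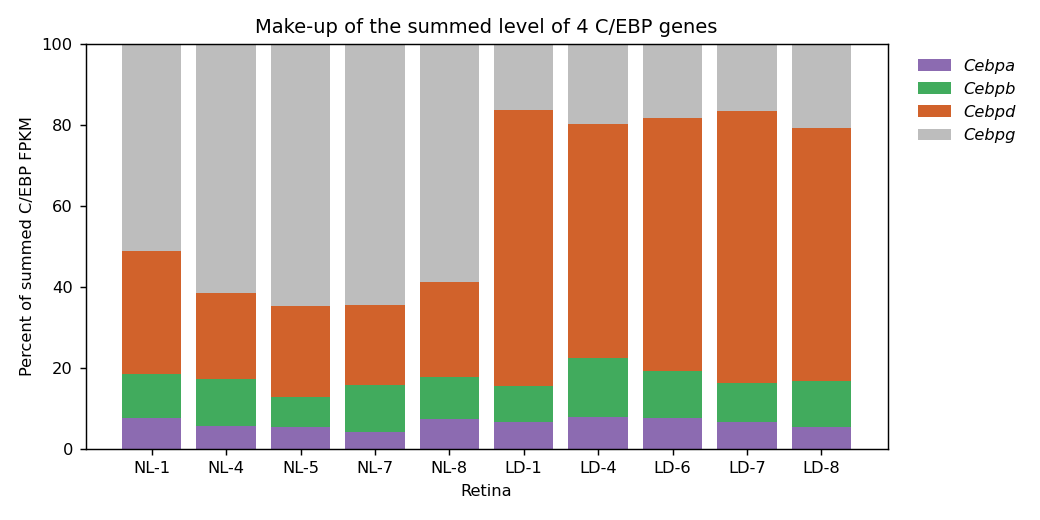
Percent of the summed FPKM of *Cebpa*, *Cebpb*, *Cebpd* and *Cebpg* held by each gene, 1 bar per retina. *Cebpg* (grey) is the largest part of every NL bar at 51.1% or more, and *Cebpd* (orange) of every LD bar at 57.9% or more.

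Promoter sequence was at hand for 6 of the 10 factors (8 promoters, mouse RefSeq, build GRCm38.p6). The 250 bases before the transcription start are shown for *Cebpa*, *Cebpb* and *Cebpg*, since the response of *Cebpg* was smaller than that of *Cebpa* and of *Cebpb*, with capitals marking the motif matches found.
*Cebpa*, chr7:35119043-35119292, plus strand: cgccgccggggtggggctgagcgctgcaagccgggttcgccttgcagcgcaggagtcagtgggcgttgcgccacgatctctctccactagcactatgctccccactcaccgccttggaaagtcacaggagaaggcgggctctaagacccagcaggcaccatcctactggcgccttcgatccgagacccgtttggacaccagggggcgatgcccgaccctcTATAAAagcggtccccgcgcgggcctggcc
*Cebpb*, chr2:167688665-167688914, plus strand: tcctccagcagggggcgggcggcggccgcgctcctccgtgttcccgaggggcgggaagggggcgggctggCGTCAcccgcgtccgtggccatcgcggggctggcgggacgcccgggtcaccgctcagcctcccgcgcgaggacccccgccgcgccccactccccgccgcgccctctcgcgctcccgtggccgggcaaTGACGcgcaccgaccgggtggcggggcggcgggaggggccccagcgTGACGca
*Cebpg*, chr7:35056567-35056816, minus strand: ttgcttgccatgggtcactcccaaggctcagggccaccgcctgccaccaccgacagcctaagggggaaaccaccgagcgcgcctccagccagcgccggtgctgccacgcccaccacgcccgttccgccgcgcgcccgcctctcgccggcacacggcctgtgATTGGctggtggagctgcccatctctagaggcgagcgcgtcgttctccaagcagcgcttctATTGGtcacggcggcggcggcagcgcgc
Each was searched on both strands for a C/EBP site (TTGCNNAA), a STAT site (TTCNNNGAA), an AP-1 site (TGANTCA), a cAMP response half-site (TGACG), an ETS site (CCGGAAGT), a RUNX site (TGTGGT), the E-box bound by MYC and MAX dimers (CACGTG), the promoter element known as the CCAAT box, and a TATA box (TATAAA). The *Cebpb* promoter held the half-site 3 times, beginning 180, 53 and 7 bases before the start, and 17.8% of the 32851 mouse promoters of this length held at least 1. The *Cebpa* promoter held a TATA box 30 to 25 bases before the start (12.4% of all promoters). The *Cebpg* promoter held the CCAAT box 2 times, beginning 89 and 28 bases before the start (33.8% of all promoters). The C/EBP, STAT, AP-1, ETS and RUNX motifs, held by 9.56%, 7.02%, 6.75%, 2.88% and 14% of all promoters, had no match in any of the 8 windows, which says only that these letters are not within them. All 3 printed windows were richer in G and C (66.4%, 81.6% and 70.8%) than the median promoter (52.4%).

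The 4 ETS genes had log2 differences of 0.21 to 1.64, against 0.53 to 3.66 for the 4 C/EBP genes, and the families were not tested against each other. *Ets1* (chr9:32636221-32757820, plus strand), a factor of endothelial cells and lymphocytes, had the largest log2 difference among them. It was at 0.447, 0.322, 0.372, 0.339 and 0.375 FPKM in NL, and at 0.992, 1.70, 1.69, 1.29 and 1.25 FPKM in LD. The NL retinas were nearly level, while LD-4 and LD-6, a close pair, were the highest LD retinas. The mean rose 3.73-fold, from 0.371 ± 0.0479 to 1.38 ± 0.305 FPKM (SD, n = 5 each), with a log2 difference of 1.64 (SE 0.17, limma adjusted p = 6.13e-05). At these low levels the fold depended on the pseudocount, and the log2 difference was 0.79 with a pseudocount of 1, under the 2-fold minimum and below the 0.99 of *Etv5* on that scale.

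*Ets2* (chr16:95702075-95721051, plus strand), a widely expressed relative activated through Ras and ERK, was at 3.66, 2.96, 3.14, 3.03 and 3.24 FPKM in NL. Under LD it reached 4.90, 5.87, 5.59, 6.08 and 5.88 FPKM. The groups did not overlap, and the rise was even across retinas but under 2-fold (1.77-fold, 3.20 ± 0.275 to 5.67 ± 0.465 FPKM, SD, n = 5 each). The log2 difference was 0.80 (SE 0.08, limma adjusted p = 4.01e-05). *Ets1* responded more than *Ets2* by 0.83 on the log2 scale (SE 0.12, exact permutation p = 0.00794, adjusted p over the 12 pairs 0.0159), the one ETS pair that passed.

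*Etv5* (chr16:22381309-22439719, minus strand), a PEA3 subfamily factor known as a target of FGF signalling, was at 3.66, 5.34, 6.09, 6.16 and 3.75 FPKM in NL. The LD levels were 7.64, 15.2, 14.6, 6.99 and 11.7 FPKM. The groups did not overlap, but LD-7 and LD-1 were only just above the highest NL retina, and the spread in LD was wide. The mean rose 2.24-fold, from 4.999 ± 1.23 to 11.2 ± 3.82 FPKM (SD, n = 5 each), with a log2 difference of 1.11 (SE 0.25, limma adjusted p = 0.00701). This call sat at the threshold. It was lost when any 1 of 8 retinas was left out (all but LD-1 and LD-7), with log2 differences of 0.99 to 1.27 and adjusted p up to 0.0196 over the 10 fits.

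*Etv4* (chr11:101769742-101785371, minus strand), the sister of *Etv5* in the PEA3 subfamily, was at 1.01, 3.66, 4.40, 4.73 and 1.10 FPKM in NL. In LD it was at 1.32, 4.02, 4.12, 1.32 and 6.37 FPKM. Levels fell into a low and a high range in both groups, with NL-1, NL-8, LD-1 and LD-7 at 1.01 to 1.32 FPKM and the other 6 retinas at 3.66 to 6.37. The group means were 2.98 ± 1.80 and 3.43 ± 2.14 FPKM (SD, n = 5 each), a log2 difference of 0.21 (SE 0.57, limma adjusted p = 0.826, exact permutation p = 0.595). Its 95% confidence interval ran from -1.06 to 1.48, and both a 2-fold rise and a 2-fold fall lie within it.

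The responses of *Etv4* and *Etv5* differed by 0.90 (SE 0.42), which did not pass (exact permutation p = 0.0556, adjusted p = 0.0952), although its 96.8% rank interval, 0.04 to 1.95, lay just above 0. The other ETS pairs did not pass either. *Ets1* and *Etv4* differed by 1.42 (SE 0.65, adjusted exact permutation p = 0.107, 96.8% interval -0.22 to 3.13). *Ets1* and *Etv5* differed by 0.52 (SE 0.26, adjusted exact permutation p = 0.148, interval -0.26 to 1.34). *Ets2* and *Etv4* differed by 0.59 (SE 0.67, adjusted exact permutation p = 0.433, interval -1.33 to 2.44). *Etv5* and *Ets2* differed by 0.31 (SE 0.30, adjusted exact permutation p = 0.390, interval -0.63 to 1.16). The intervals of these other pairs each span 0, and no interval shows that the genes of a pair responded alike.

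**Figure D3:**
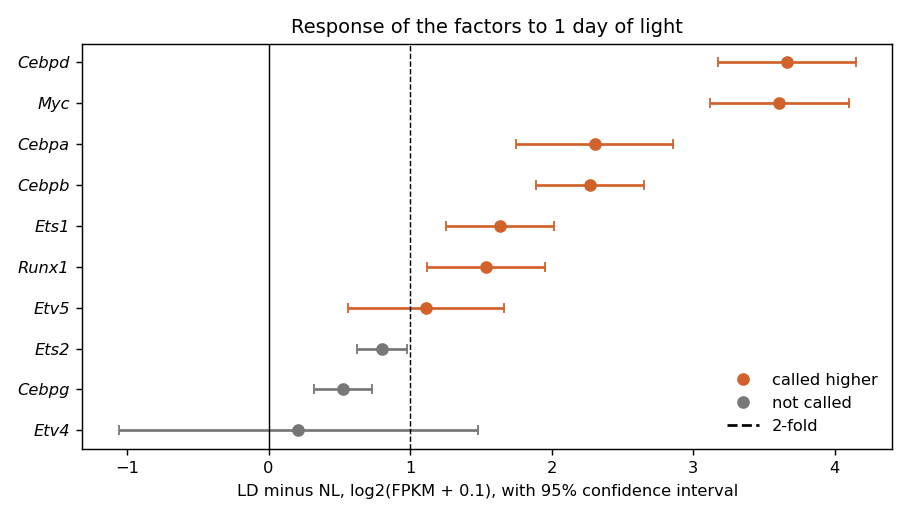
Log2 difference, LD minus NL, of each factor with its 95% confidence interval from limma (n = 5 retinas per group). Orange genes were called higher, grey genes were not, and the dashed line marks 2-fold. *Cebpd* (3.66) and *Myc* (3.61) lie farthest right, and the interval of *Etv4* spans 0.

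*Etv4* and *Etv5* were low in the same 4 retinas, those on the positive side of component 2. In NL, NL-1 and NL-8 had the 2 lowest levels of *Etv4* and *Etv5* and the 2 highest levels of each of the other 8 factors. In LD, LD-1 and LD-7 had the 2 lowest levels of 5 factors (*Etv4*, *Etv5*, *Cebpb*, *Runx1* and *Myc*) and the 2 highest of *Cebpd* and *Cebpa*, although for *Cebpa* LD-1 and LD-4 were nearly level (4.963 and 4.958 FPKM). These are descriptions of 4 retinas picked out by a component to which the same genes contribute, and LD-1 and LD-7 are a close pair. Without the 4 retinas, 7 of the 10 factors were called higher.

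**Figure D4:**
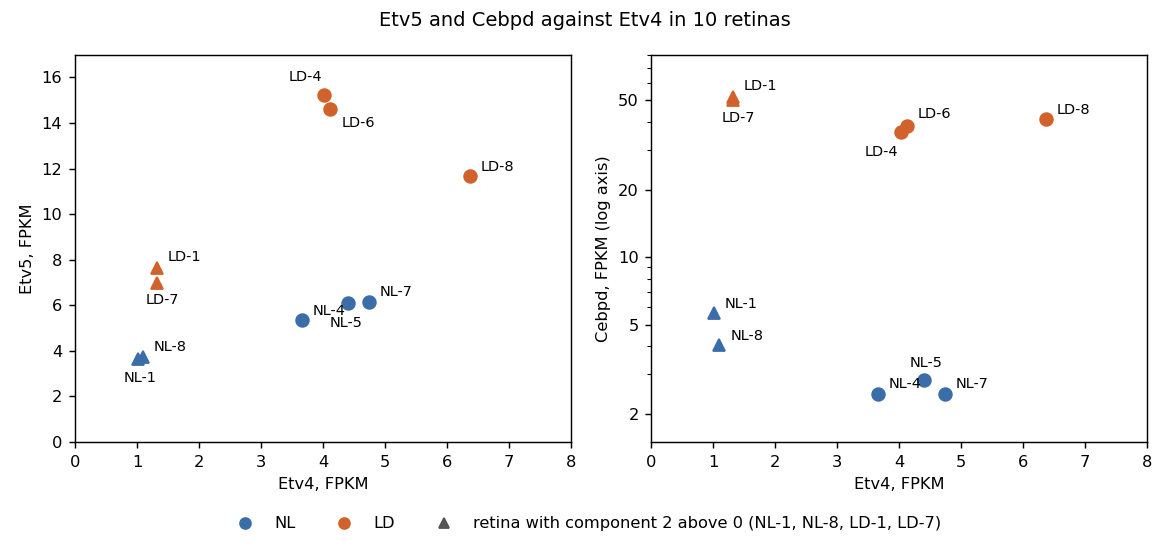
FPKM of *Etv5* (left, linear axis) and *Cebpd* (right, log axis) against FPKM of *Etv4* in the 10 retinas, NL blue and LD orange, with triangles for NL-1, NL-8, LD-1 and LD-7. Within each group the triangles lie lower for *Etv5* and higher for *Cebpd*.

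*Myc* (chr15:61985391-61990374, plus strand) showed the largest ratio of means, 15.2-fold. It was at 0.396, 0.312, 0.127, 0.329 and 0.428 FPKM in NL (7 to 30 reads). The LD retinas had 4.05, 5.79, 5.15, 4.51 and 4.71 FPKM (268 to 319 reads). The LD retinas varied little around the mean of 4.84 ± 0.663 FPKM (SD, n = 5), and the NL mean was 0.318 ± 0.117 (SD, n = 5). The log2 difference was 3.61 (SE 0.22, limma adjusted p = 1.49e-06), and it was 2.14 and still called with a pseudocount of 1.

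*Runx1* (chr16:92601466-92826149, minus strand) was the least abundant factor in both groups. It was at 0.0894, 0.0431, 0.0492, 0.0274 and 0.0806 FPKM in NL (7 to 25 reads) and at 0.263, 0.455, 0.357, 0.343 and 0.370 FPKM in LD (77 to 111 reads). The groups did not overlap, although every LD retina was still below 0.5 FPKM. The mean went from 0.0579 ± 0.0262 to 0.358 ± 0.0688 FPKM (SD, n = 5 each), 6.17-fold. The log2 difference was 1.54 (SE 0.19, limma adjusted p = 1.77e-04), 0.36 with a pseudocount of 1 and 2.65 with limma-voom on reads, which uses no pseudocount in FPKM. The size of this change is therefore better read from the ratio of means than from the log2 scale.

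In the order of median levels, *Cebpg* (8.16 FPKM) was first in NL and clear of *Etv5*, while *Etv5*, *Etv4*, *Ets2* and *Cebpd* overlapped their neighbours. *Cebpb* came next, overlapping *Cebpa*, and *Ets1* overlapped *Myc* above *Runx1*. In LD, *Cebpd* (41.2 FPKM) stood clear at the top. *Cebpg*, *Etv5* and *Cebpb* followed, each overlapping the next, and clear of them came *Ets2*, *Cebpa*, *Myc*, *Etv4* and *Ets1*, again each overlapping the next, with *Runx1* clear at the bottom. *Myc* moved from the 9th to the 7th place and *Cebpd* from the 5th to the 1st.

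The rest of each family was read from lists of relatives. Among the 3 tested C/EBP relatives outside the 10, *Cebpe*, a granulocyte factor, had 4 to 15 reads in LD and at most 1 read in any NL retina. Like *Runx1* it reached the minimum for testing only through its LD retinas and had to differ, so its call is no support. NL lay under the floor of 3 reads. The LD mean of *Cebpe*, 0.239 ± 0.172 FPKM (SD, n = 5), was 2.16-fold what 3 reads in every NL retina would give. That mean rested on LD-8 (0.543 FPKM), while the other LD retinas had 0.132 to 0.199, so the bound would be lower without LD-8. *Ddit3*, the stress-induced inhibitor of C/EBP dimers, was at 27.4 ± 1.87 FPKM in NL and 35.5 ± 6.07 in LD (SD, n = 5 each, log2 difference 0.36, limma adjusted p = 0.021), and *Cebpz* differed by -0.03. The median over all 7 C/EBP genes was 1.46, which is the value of *Cebpe* itself. It was 1.11 with *Cebpe* at its bound, which leans on LD-8, and 1.40 over the 6 genes without *Cebpe*.

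Of 26 ETS genes 20 were tested, and 5 were called higher and none lower, with a median of 0.52. Of all genes tested, 4.13% were called higher. Beside *Ets1* and *Etv5*, the calls were *Spi1*, which encodes the myeloid factor PU.1 (0.261 to 1.66 FPKM, log2 difference 2.34, limma adjusted p = 9.54e-05), *Elk3*, a ternary complex factor (0.758 to 2.23 FPKM, 1.41, 9.29e-05), and *Etv6* (4.11 to 9.26 FPKM, 1.16, 3.15e-06). Of the remaining 15, *Ets2* and *Elf1* (1.49 to 2.15 FPKM, 0.51, limma adjusted p = 0.00355) were higher but under 2-fold. *Elf4* (0.0675 to 0.222 FPKM, 1.01) missed the threshold (limma adjusted p = 0.026). The broadly expressed *Gabpa* (-0.01), *Elk1* (-0.09) and *Elk4* (0.02) had limma adjusted p of 0.856, 0.442 and 0.774. These uncalled genes were named after their values were seen. Of the 8 tested genes of the RUNX family and its partners only *Runx1* was called. It was tested only through its LD retinas and had to differ, so that call is no support. *Runx2* (0.410 to 0.857 FPKM, 0.89, limma adjusted p = 0.00175) and the partner *Cbfb* (7.02 to 9.58 FPKM, 0.44, 0.00171) were higher but under 2-fold.

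*Myc* was also the one call among the 13 genes of its network. *Mycn* was higher by 0.56 (3.32 to 4.95 FPKM, limma adjusted p = 0.00756), while its dimer partner *Max* fell by 0.37 (28.5 to 22.0 FPKM, limma adjusted p = 0.00111) and the antagonist *Mxd1* fell by 0.38 (9.94 to 7.63 FPKM, 4.97e-04), each under 2-fold. *Max* therefore remained the more abundant transcript of the pair in LD, at 22.0 FPKM against 4.84 for *Myc*. Of 22 textbook MYC targets none was called, with a median of 0.19 against -0.01 over all genes tested. At an adjusted p under 0.01 with no minimum fold, 9 targets were higher and 1 lower. Of the 24508 genes tested, 2280 (9.3%) were higher and 1898 lower by that measure. The targets that passed included *Srm* (spermidine synthase, 0.78), *Fbl* (fibrillarin, 0.52), *Npm1* (nucleophosmin, 0.48) and *Cdk4* (0.41), with *Ldha* lower (-0.45). These 5 were chosen after their values were seen.

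**Figure D5:**
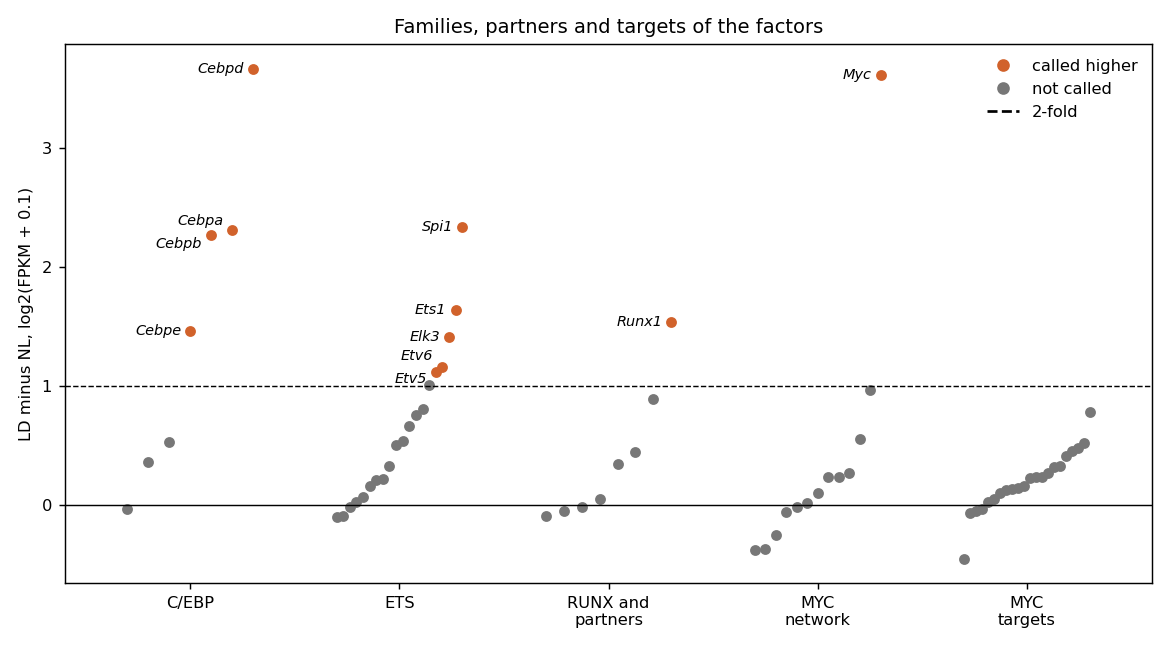
Log2 difference, LD minus NL, of every tested gene of the C/EBP, ETS, RUNX and MYC network lists and of the MYC target list, 1 point per gene and sorted within a list. Orange and named genes were called higher, and no gene of these lists was called lower. The dashed line marks 2-fold, and no MYC target reaches it.

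Pathways that lead to or from these factors moved as follows, where 4.13% of all genes tested were called higher. In the gp130 and STAT3 pathway, 8 of 14 tested genes were called higher and none lower (median 1.43). They included *Bcl3* (5.21), the ligand *Lif* (0.324 to 9.07 FPKM, 4.50), the feedback inhibitor *Socs3* (2.12 to 51.0 FPKM, 4.46) and the oncostatin M receptor *Osmr* (2.89). Of the C/EBP-linked acute phase genes, 4 of 11 tested were called higher (median 0.98), namely *Lcn2* (lipocalin 2, 2.34 to 21.5 FPKM, 3.61), *Cp* (ceruloplasmin, 16.2 to 98.5 FPKM, 2.66), *Cd14* (2.50) and *Il6ra* (2.08). The other 7 were not called, namely *C3* (2.47, limma adjusted p = 0.0273), *Ptgs2* (0.98, 0.0101), *Orm1* (0.68), *Csf3r* (0.40), *Ptx3* (0.26), *Orm3* (-0.01) and *Orm2* (-0.23). The NL mean of *Lcn2* rested on NL-1 (7.24 FPKM), and without that retina it was 1.11 FPKM and the log2 difference 4.14. *Saa1*, *Saa2*, *Saa3*, *Hp* and *Il6* of the same list were too low to be tested, with at most 8 reads in a retina. In the FGF and ERK response list, which holds the usual company of *Etv4* and *Etv5*, 2 of 12 genes were called higher (*Fgf2*, 2.66, and *Dusp6*, 1.53) and the median was 0.44.

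Cell type markers moved beside the factors, and their part in the changes was not tested. Of 8 microglia and macrophage genes, 5 were called higher, against 4.13% of all genes tested. The summed level of the 8 was 10.3 to 14.1 FPKM in NL and 14.9 to 37.6 in LD. Not called were *Csf1r* (0.74), *Tmem119* (0.22) and *P2ry12*, which went the other way (-0.74, limma adjusted p = 0.1215). *Tyrobp* had the highest mean of the list in LD, 10.1 FPKM against 2.17 in NL. The highest sums were those of LD-1 (37.6) and LD-7 (31.8), which also had the highest *Cebpd* and *Spi1*, but *Runx1* was lowest in LD-1. The lowest LD sum was that of LD-8, the retina with the lowest LD level of *Cebpa*. The 8 endothelial genes summed to 34.7 to 45.7 FPKM in NL and 51.0 to 84.9 in LD. LD-4 (84.9) and LD-6 (84.8) were highest, the retinas that were also highest for *Ets1* and *Etv5*. None of the 8 was called, but *Kdr* (0.70, limma adjusted p = 0.00876) and *Egfl7* (0.70, 0.00943) were higher under 2-fold. *Kdr* alone made up 69.7 to 81.0% of the summed endothelial level in NL and 73.7 to 85.4% in LD. The other 7 genes summed to 7.65 to 12.2 FPKM in NL and 7.80 to 22.3 in LD, overlapping, with LD-4 (20.54) and LD-6 (22.3) again highest. Of 8 Müller glia genes 1 was called higher (*Vim*, 2.02) and 1 lower (*Glul*, -2.10), and *Sox9* was higher but under 2-fold (0.79, limma adjusted p = 0.0025). The summed level of the 8 was 1082 to 1310 FPKM in NL and 600 to 848 in LD, with *Glul* going from 711 to 165 FPKM. Defining neutrophil genes were at or near 0, with *Elane* unread, at most 2 reads of *Mpo* and 3 of *Ly6g*, and the summed level of the 8 was at most 0.937 FPKM in NL and 1.03 in LD. Of the T cell genes, *Cd3e*, *Cd3d* and *Cd3g* had at most 4 reads in a retina, while *Lck* was called higher (1.24). Pigment epithelium, lens and ganglion cell lists held no called gene in 8, 4 and 8 tested.

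Genes whose levels varied most like each factor between retinas of 1 group were read from 12428 protein-coding genes, as the Pearson correlation of deviations from the group means over 10 retinas. It describes these retinas only, because several of them are close pairs and component 2 divides both groups. For *Etv4* the nearest genes were *Vgf*, *Aldoc* and *Caly* (0.99 for each), and *Vgf*, a neuropeptide precursor, was at 5.66, 18.0, 22.8, 20.7 and 5.45 FPKM in NL and at 6.33, 25.3, 23.8, 7.68 and 35.5 in LD, low in the same 4 retinas as *Etv4*. For *Etv5* they were *Thrsp*, *Tceal9* and *Ndn* (0.99 for each). *Myc* was the nearest gene to *Cebpb* (0.93), and *Cebpb* the second nearest to *Myc* after *Zfp354c* (0.94). NL-5 weighed heavily there, as the lowest NL retina for both genes (*Cebpb* 0.950 FPKM, *Myc* 0.127 FPKM from 7 reads). *Ets1* was nearest to *Itgav*, *Zhx2* and *Cnn3* (0.95 to 0.96). *Runx1* was nearest to *Zfp358* (0.96), *Osmr* and *Sec61a1* (0.94 each). For *Cebpa* the nearest gene was *Nedd4* (0.98), for *Cebpd* *Trip4* (0.97), for *Cebpg* *Ipo7* (0.96) and for *Ets2* *Kdm2b* (0.95).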

How the data were processed

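The deposited table gave FPKM per gene for 5 NL and 5 LD neural retinas, as the authors' sequencing company computed it. RNA was taken with TRIzol and libraries were made with a TruSeq kit that does not keep strand. Submitters' processing notes name TopHat2 2.0.9, Bowtie2 2.0.6 and build mm8, but gene positions in the table equal those of GRCm38 (GENCODE M21) for 53499 of 54532 genes. The counter and annotation are not given in the sources used here. FPKM times length came out as whole reads (within 0.1) in 100% of values after a factor per retina, 0.951 to 0.968 in NL and 1.04 to 1.07 in LD.

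Log2(FPKM + 0.1) was tested with limma 3.58.1 (R 4.3.3, intensity trend, Benjamini-Hochberg adjustment) over the 24508 genes that reached 0.1 FPKM in 5 or more retinas. Single values were compared by exact permutation tests (scipy 1.17.1). Rank intervals of a pair's difference leave out the 2 smallest and 2 largest of the 25 differences between an LD and an NL retina. Leaving out the factor moves the median of all genes by 0.12 on the log2 scale. The script was tested on simulated data, and 24 alternatives were run. Named genes are the 10 factors, called genes of their family lists, at most 4 called genes of any other list and the 3 genes nearest to each factor. Relatives, partners and targets named beside these were chosen after their values were seen. The factors and lists were chosen with earlier results of these data known.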

Additional observations from a re-analysis of the deposited data

Results flagged for a closer look

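The level of *Cebpa* in LD-8, 3.49 FPKM, lay apart from the other 4 LD retinas, which were between 4.71 and 5.01 FPKM. The gap to the nearest of them was 0.803 of the whole range of the group. It was the 1 of 20 groups tested (10 factors in NL and LD) that passed Dixon's limit for a single distant sample, and chance gives about 1 in 20. Even this retina was above the highest NL retina, at 1.42 FPKM. It had the lowest summed level of microglia and macrophage genes in LD, 14.9 FPKM against 20.8 to 37.6 in the other LD retinas, and the part of these cells in the value was not tested.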

How the results depend on the processing

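The calls of the 10 factors were repeated under 24 alternatives, 22 planned and 2 added after seeing the data (FPKM without the factor per retina, and without NL-1, NL-8, LD-1 and LD-7). *Cebpb*, *Cebpd* and *Myc* were called in each of them. With a pseudocount of 1, 816 genes and 4 of the 10 factors were called. The log2 differences of *Ets1* (0.79), *Runx1* (0.36) and *Etv5* (0.99) were then under 2-fold. By its construction that scale shrinks the differences of genes as low as *Ets1* and *Runx1*, while *Etv5* moved only from 1.11, already near the minimum. At an adjusted p under 0.05 with no minimum fold, 6818 genes passed, 3543 of them higher. Only 4 replicate numbers occur in both groups, and retinas with the same number did not deviate together (correlations of -0.09 to 0.07). With these 8 retinas and a replicate block, 815 genes and 3 factors were called, while *Cebpa* (adjusted p = 0.0102, limma), *Ets1* (0.0139), *Runx1* (0.0227) and *Etv5* (0.0406) missed the threshold, and without the block 6 factors were called. With each of the 3 close pairs of retinas averaged, 1076 genes and 6 factors were called, and *Etv5* missed the threshold (adjusted p = 0.0205, limma). The call of *Etv5* was lost in 14 of the 24. *Etv4* turned negative without NL-1 (-0.0889), NL-8 (-0.06) or LD-8 (-0.07) and ranged from -0.09 to 0.48 when 1 retina was left out. The cause of these changes was not tested. Depth limits *Runx1* and *Myc* in NL, where as few as 7 reads lie behind a value.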
